A study of Mus musculus with 4 samples.

Results

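The 8 genes described here, Rgs1, Rgs2, Rgs3, Rgs10, Rgs14, Rgs16, Rgs18 and Rgs19, encode regulators of G protein signalling. They were chosen by gene symbol from the array annotation, as 8 of the 21 numbered Rgs genes and of the 19505 genes measured, and each has 1 probe set. The choice was made with earlier results of these data known, so the counts below are not those of a list fixed in advance. RNA came from cultured mouse T cells, with 2 arrays of Tc9 cells grown under a Tc9 cytokine condition and 2 arrays of Tc1 cells grown under a Tc1 cytokine condition. Tc9 is the usual name for interleukin 9-producing CD8 T cells, and Tc1 for cytotoxic CD8 T cells that produce interferon gamma. The sources used here do not state the cytokines, culture times, mouse strain, genotype or age, nor whether the 2 arrays of a group stand for separate cultures or animals, so the p-values measure only the spread between these arrays, which may be technical.

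RGS proteins bind the activated alpha subunit of a heterotrimeric G protein and speed up its hydrolysis of GTP, which ends the signal of the receptor upstream. In lymphocytes the best studied of these signals come from receptors coupled to Gi, among them the chemokine receptors and the sphingosine 1-phosphate receptors that guide cells into and out of tissues. By sequence, Rgs1, Rgs2, Rgs3, Rgs16 and Rgs18 belong to one subfamily of small RGS proteins, Rgs10 and Rgs14 to another, and Rgs19 to one more.

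Rgs10 and Rgs3 were higher in Tc9 cells, Rgs16 and Rgs2 differed less and missed the threshold, and Rgs1, Rgs14 and Rgs19 lay closer to their Tc1 values. Of the 8 genes, 2 rose and 0 fell at an adjusted p under 0.05 by limma over all genes, against 0.385% of all genes higher and 0.179% lower (0.564% in either direction). Refitted over the 7016 genes above background on both arrays of a group, the same 2 rose, against 1.67% of those genes. At an unadjusted p under 0.05, 3 were higher and 1 was lower, against 2.94% and 2.34% of all genes. The median log2 change of the 8 genes was 0.067, against -0.0027 over all 19505 genes. Signals are quantile normalized intensities on a linear scale, and log2 changes are Tc9 minus Tc1 after 16 was added to each intensity, which understates the change of dim genes. Because the array measures RNA in bulk, more cells with a transcript and more transcript per cell cannot be told apart. Rose and fell mean only higher and lower in Tc9 than in Tc1. No starting cells were measured, so a gain in Tc9 and a loss in Tc1 cannot be told apart.

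Each array carries negative control probe sets, and a signal above their 95th percentile on the same array (between 153 and 182 on the normalized scale) was taken as above background. On all 4 arrays 7 of the 8 genes were above it, and Rgs18 was below it on all 4. Of all 19505 genes, 6354 were above it on all 4 arrays and 11738 on none. The other 13 numbered Rgs genes were below it on all 4 arrays, so a change in them could not be measured reliably. The arrays differed by number: the median deposited intensity was 37.9 in Tc9 and 37.1 in Tc1 on the arrays numbered 1, and 57.1 in Tc9 and 57.3 in Tc1 on those numbered 2. The differences of the 8 genes are therefore also given within each number, and adjusted p-values with the number as a block where that changed the call of a named gene. The block fit took the same spread for every gene of like intensity, so its p-values do not measure the spread of a single gene. The sources used here do not say what sets the numbers apart.

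**Figure D1:**
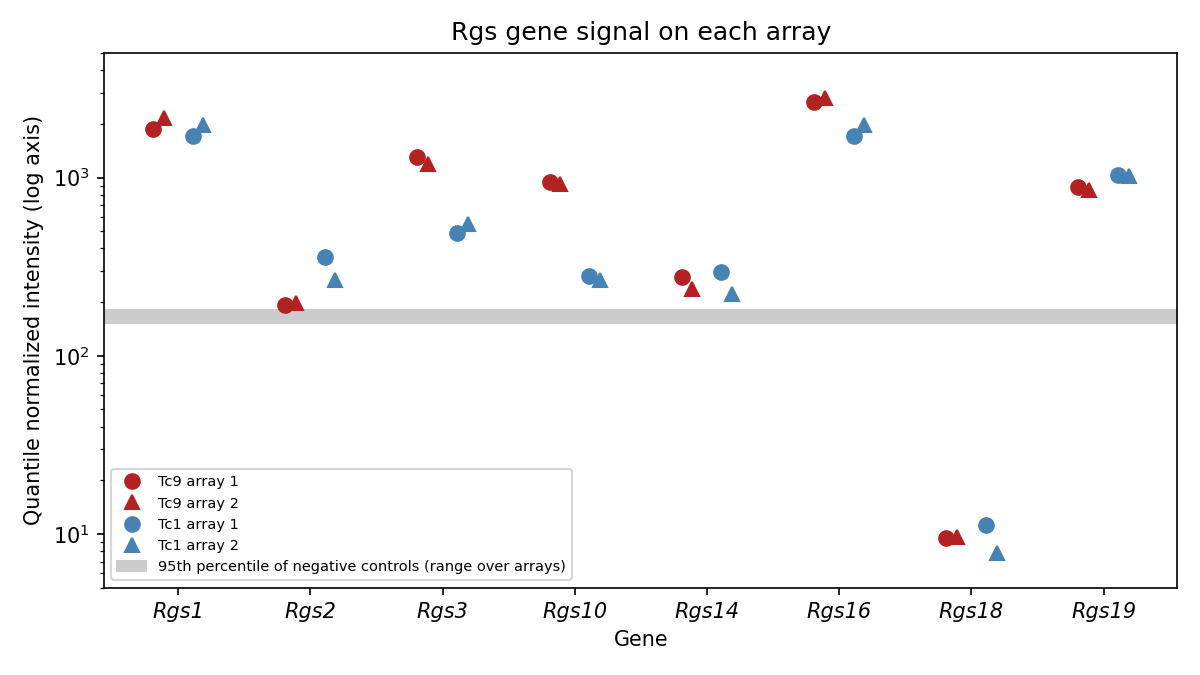
Quantile normalized intensity (log axis) of the 8 Rgs genes on each array, with Tc9 arrays in red left of Tc1 arrays in blue, circles for arrays numbered 1 and triangles for those numbered 2. The grey band spans the 95th percentile of the negative controls, 153 to 182 over the 4 arrays; Rgs10 and Rgs3 stand clearly higher in Tc9, and Rgs18 lies below the band on all 4 arrays.

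Rgs10 encodes a small RGS protein, little more than the RGS domain itself, that acts on Gi-type alpha subunits. It measured 943 and 916 on the Tc9 arrays, against 281 and 268 on the Tc1 arrays. Both Tc9 signals were over 3 times either Tc1 signal, and after quantile normalization the arrays of a group lay close together. The means were 930 ± 18.9 in Tc9 and 275 ± 9.67 in Tc1 (SD, n = 2 each). The log2 change was 1.70 ± 0.15 (SE), or 3.25-fold (95% interval of the log2 change 1.34 to 2.06, limma adjusted p = 0.00565). It was 1.69 within the arrays numbered 1 and 1.72 within those numbered 2. By absolute log2 change Rgs10 ranked 62 of 19505 genes. With each array centred on its median in place of quantile normalization the log2 change was 1.68 and the adjusted p 0.0533. With the values as deposited, 669 and 1174 in Tc9 and 199 and 343 in Tc1, the log2 change was 1.70 and the adjusted p was 1. Of 15 alternatives these 2 lost the call, and the adjusted p ran between 1.68e-70 and 1. The lowest came from the block fit, which does not measure the spread of a single gene.

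Rgs3, which acts on both Gi and Gq alpha subunits and is made in longer and shorter forms, measured 1296 and 1191 on the Tc9 arrays, against 486 and 552 on the Tc1 arrays. The lower Tc9 signal was over 2 times the higher Tc1 signal. The means were 1244 ± 74.5 in Tc9 and 519 ± 46.6 in Tc1 (SD, n = 2 each). The log2 change was 1.24 ± 0.15 (SE), or 2.36-fold (95% interval 0.89 to 1.58, limma adjusted p = 0.0170). It was 1.39 within the arrays numbered 1 and 1.09 within those numbered 2, the smaller rise. The call was lost with median centring (adjusted p = 0.194), without the intensity trend in limma's variance model (0.0713) and with the values as deposited (1). The adjusted p ran between 1.78e-51, from the block fit, and 1 over 15 alternatives. The single probe set does not tell the forms of Rgs3 apart.

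The promoters of Rgs10 and Rgs3 are shown because these genes passed as higher in Tc9 than in Tc1. RefSeq's promoter table (GRCm38.p6) held windows of 300 bases, from 250 before to 50 after a start, for 5 of the 8 genes, 8 windows in all. Letters run 5′ to 3′ on the gene's strand, and capitals mark CG dinucleotides.
Rgs10, chr7:128418123-128418422, minus strand: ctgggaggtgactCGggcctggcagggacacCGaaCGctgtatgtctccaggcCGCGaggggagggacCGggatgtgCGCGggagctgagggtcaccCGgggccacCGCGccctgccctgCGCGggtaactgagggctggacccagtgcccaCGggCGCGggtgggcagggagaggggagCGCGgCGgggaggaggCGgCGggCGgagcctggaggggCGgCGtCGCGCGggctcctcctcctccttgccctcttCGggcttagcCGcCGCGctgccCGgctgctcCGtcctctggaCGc
Rgs3 start 1, chr4:62559597-62559896, plus strand: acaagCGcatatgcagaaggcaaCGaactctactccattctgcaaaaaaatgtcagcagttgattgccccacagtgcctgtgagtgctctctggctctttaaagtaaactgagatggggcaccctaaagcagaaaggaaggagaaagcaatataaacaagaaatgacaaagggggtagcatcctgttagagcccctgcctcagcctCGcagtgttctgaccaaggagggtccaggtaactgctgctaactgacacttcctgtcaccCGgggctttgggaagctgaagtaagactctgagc
Rgs3 start 2, chr4:62619422-62619721, plus strand: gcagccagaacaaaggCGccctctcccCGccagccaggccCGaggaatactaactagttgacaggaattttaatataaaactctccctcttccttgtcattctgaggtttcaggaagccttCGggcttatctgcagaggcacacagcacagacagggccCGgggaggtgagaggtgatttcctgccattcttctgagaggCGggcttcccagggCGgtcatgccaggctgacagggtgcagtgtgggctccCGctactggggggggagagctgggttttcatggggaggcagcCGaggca

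The windows of the 2 genes that rose were unlike each other. The Rgs10 window held 34 CG dinucleotides, more than 92.3% of the 32851 windows in the table, and was 76.0% G and C. The Rgs3 windows held 4 and 9, more than 31.4% and 54.2% of the table, where the median was 7. Rgs2 held 33 and Rgs16 held 22, while the 3 starts of Rgs19 held 27, 37 and 4. High and low CG content thus occurred among genes that rose and among genes that did not pass the test. Both Rgs3 windows held the letters TATAAA, searched on both strands, as did 13.6% of all windows, and the other 6 windows did not. The AP-1 letters TGANTCA (7.81% of all windows), the STAT letters TTCNNNGAA (8.30%), the T-box letters AGGTGTGA (1.28%), the SMAD letters GTCTAGAC (0.213%) and the CRE letters TGACGTCA (1.79%) were in none of the 8 windows on either strand. The E-box letters CACGTG (7.15%) were only in the window of the Rgs19 start with 37 CG dinucleotides. A match is a run of letters and not a site, and the search letters were chosen after the array values were known.

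**Figure D2:**
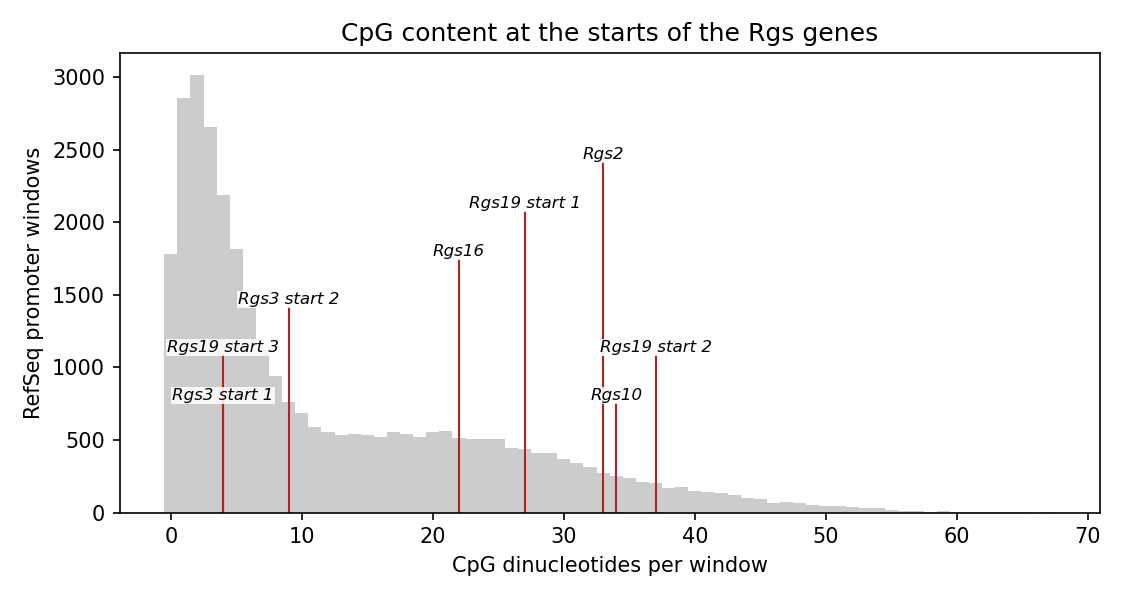
Number of CG dinucleotides (horizontal axis) in each of 32851 RefSeq promoter windows of 300 bases (grey bars, number of windows), with red lines at the 8 windows of 5 Rgs genes; line height carries no value. Rgs10 stands at 34 and the Rgs3 starts at 4 and 9.

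Rgs16 encodes a Gi and Gq regulator that is induced in activated T cells. It measured 2642 and 2799 on the Tc9 arrays, against 1720 and 1968 on the Tc1 arrays. Both Tc9 signals were above both Tc1 signals, by a smaller step than for Rgs10 and Rgs3. The log2 change of 0.56 ± 0.13 (SE; 95% interval 0.26 to 0.86; 0.61 and 0.50 within the numbers 1 and 2) missed the threshold (limma adjusted p = 0.207). With the replicate number as a block the adjusted p was 3.75e-21, and 0.00759 without the intensity trend as well.

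Rgs2, which prefers Gq alpha subunits, measured 192 and 198 on the Tc9 arrays, against 357 and 265 on the Tc1 arrays. The Tc9 signals were both lower than the Tc1 signals but only just above background, so the size of the difference is uncertain. The log2 change of -0.62 ± 0.21 (SE; 95% interval -1.12 to -0.12) missed the threshold (limma adjusted p = 0.652). It was -0.85 within the arrays numbered 1 and -0.39 within those numbered 2. With the block the adjusted p was 9.86e-06, and 0.0129 without the intensity trend as well.

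Rgs1 encodes a regulator of Gi and Gq signals that limits the migration of B and T cells towards chemokines. It measured 1861 and 2157 on the Tc9 arrays, against 1708 and 1977 on the Tc1 arrays. The groups overlapped, and within each number the Tc9 array was the higher by a similar step. The log2 change was 0.12 ± 0.14 (SE; 95% interval -0.21 to 0.45; 0.12 within either number), with a limma adjusted p of 1.00 and 0.179 with the block. Without any 1 array the log2 change lay between 0.018 and 0.23.

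Rgs19, also known as GAIP, acts on Gi-type subunits. It measured 888 and 853 on the Tc9 arrays, against 1038 and 1017 on the Tc1 arrays. Both Tc9 signals lay slightly below both Tc1 signals. The log2 change of -0.24 ± 0.13 (SE; 95% interval -0.55 to 0.077; -0.22 and -0.25 within the numbers 1 and 2) did not pass limma (adjusted p = 1.00). With the block the adjusted p was 0.0166, and 0.220 without the intensity trend as well.

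Rgs14 carries an RGS domain, a Ras-binding region and a GoLoco motif, which holds Gi alpha subunits in the GDP form. It measured 275 and 235 on the Tc9 arrays, against 296 and 223 on the Tc1 arrays. The groups overlapped and the arrays numbered 1 were the higher in both. The log2 change was -0.01 ± 0.21 (SE; 95% interval -0.52 to 0.49; limma adjusted p = 1.00), at -0.099 within the arrays numbered 1 and 0.075 within those numbered 2, and it turned to 0.014 with the values as deposited. Rgs18, known from platelets and megakaryocytes, measured 9.55 and 9.67 on the Tc9 arrays, against 11.2 and 7.79 on the Tc1 arrays. All 4 signals lay below the negative controls' percentile, where a change cannot be measured (-0.089 and 0.11 within the numbers 1 and 2).

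In 5 of the 8 genes the Tc9 arrays did not overlap the Tc1 arrays, Rgs3, Rgs10 and Rgs16 being higher and Rgs2 and Rgs19 lower. Over all genes 29.1% did not overlap, and 39.4% of the 7016 genes above background. Separation alone is thus common on these arrays. With the replicate number as a block 3 of the 8 genes were higher and 2 lower at an adjusted p under 0.05, against 6.34% and 7.37% of all genes. That fit had 1 residual degree of freedom and gave every gene of like intensity the same spread.

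**Figure D3:**
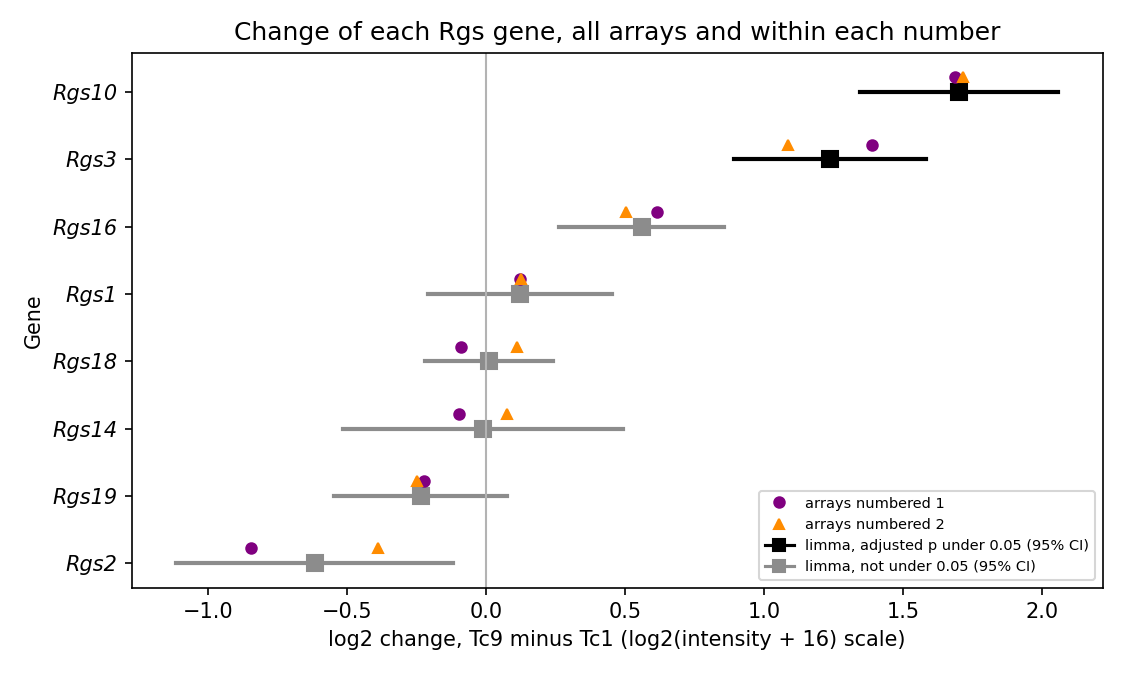
Log2 change (horizontal axis, Tc9 minus Tc1) of each Rgs gene, with squares and bars for the limma estimate and its 95% interval (black where the adjusted p is under 0.05) and circles and triangles for the difference within the arrays numbered 1 and 2. The intervals of Rgs10, Rgs3 and Rgs16 lie above 0 and that of Rgs2 below 0, and only Rgs10 and Rgs3 pass after adjustment over all genes.

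Several of these genes are neighbours. In the RefSeq order of protein-coding genes on chromosome 1, Rgs2, Rgs13, Rgs1, Rgs21 and Rgs18 follow each other, and Rgs16 stands next to Rgs8 in another place. Within the run of neighbours, Rgs1 and Rgs2 were above background on all 4 arrays and Rgs13, Rgs21 and Rgs18 on none. Rgs8 was also below background on all 4 arrays, at 118 and 89.1 in Tc9 and 172 and 77.6 in Tc1. The genes that rose, Rgs10 and Rgs3, lie apart from these and from each other, on chromosomes 7 and 4.

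The genes whose 4 centred log2 values lay nearest to those of Rgs10 were Tspan9, a tetraspanin, at a root mean square distance of 0.0573, Ski, a corepressor, at 0.0604, and Pros1, the anticoagulant protein S, at 0.0728. Nearest to Rgs3 were Cxcr4, the receptor of the chemokine Cxcl12, at 0.0595, Igf1r, a growth factor receptor, at 0.0611, and Tspan14 at 0.0859. Cxcr4 and Igf1r were below background on both Tc1 arrays, so that their distances are uncertain. These distances rest on 4 arrays and describe likeness only. Cxcr4 measured 191 and 196 on the Tc9 arrays, against 68.9 and 81.6 on the Tc1 arrays (log2 change 1.20, limma adjusted p = 0.112, with the block 5.60e-13).

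Receptors that couple to Gi included genes that rose in Tc9, and whether the Rgs proteins act on their signals in these cells was not tested. Of 30 listed receptors that couple to Gi, 26 were measured and 8 were above background on all 4 arrays. By limma 4 rose and 0 fell, against 0.385% and 0.179% of all genes. Without adjustment 8 were higher and 0 lower at p under 0.05, against 2.94% and 2.34%, and with the block 10 were higher and 1 lower, against 6.34% and 7.37%. The lower one, Ccr2, named after its values were seen, was below background on all 4 arrays. Those that rose were the chemokine receptors Ccr8 (log2 change 5.32), Ccr4 (2.54) and Ccr9 (1.53), and S1pr1 (1.79), the sphingosine 1-phosphate receptor of lymph node exit. The Tc1 signals of Ccr8 and S1pr1 were all below background, which makes their fold changes uncertain. The calls of S1pr1 and Ccr9 were lost with median centring (adjusted p = 0.0994 and 0.0847), that of S1pr1 also with 64 added in place of 16 (0.0602) and without the intensity trend (0.0727), and those of S1pr1, Ccr9 and Ccr4 with the values as deposited (1, 1 and 0.274). Cxcr3, the receptor of the interferon-inducible chemokines, measured 375 and 548 on the Tc9 arrays, against 204 and 217 on the Tc1 arrays (log2 change 1.05, limma adjusted p = 0.169, with the block 4.85e-19). The list median was 0.11.

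Between receptor and effector, no measured gene of the lists passed limma. Gnb2, Grk2 and Arrb2 were listed but not measured. Of 29 measured G protein subunit and chaperone genes, 12 were above background on all 4 arrays and 0 passed, with 4 higher and 1 lower at p under 0.05 before adjustment (2.94% and 2.34% of all genes) and 6 higher and 1 lower with the block (6.34% and 7.37%). Gng2, a gamma subunit common in leukocytes, measured 1064 and 816 on the Tc9 arrays, against 621 and 510 on the Tc1 arrays (log2 change 0.71, limma adjusted p = 0.319, with the block 6.44e-16). Gng12, another gamma subunit, measured 120 and 164 on the Tc9 arrays, against 223 and 268 on the Tc1 arrays (-0.74, limma adjusted p = 0.542, with the block 1.40e-06). It was above background on both Tc1 arrays but on only 1 Tc9 array, so the size of its difference is uncertain. The list median was 0.017.

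Of 6 measured receptor kinase and arrestin genes 0 passed limma and 0 had an unadjusted p under 0.05, while 1 was lower with the block (7.37% of all genes). That gene, Grk5, named after its values were seen, was below background on all 4 arrays. Only Grk6, a kinase that phosphorylates activated receptors, was above background on all 4 arrays, at 392 and 496 in Tc9 and 381 and 442 in Tc1. Its Tc9 and Tc1 arrays overlapped. The list median was 0.096.

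Among 24 other genes with an RGS-like domain or a GoLoco motif, the 13 other Rgs genes included, 3 were above background on all 4 arrays and 0 passed limma, with 1 higher and 0 lower both before adjustment (p under 0.05, 2.94% and 2.34% of all genes) and with the block (6.34% and 7.37%). That gene was Arhgef1, which acts downstream of G12 and G13 alpha subunits. It measured 2037 and 2119 on the Tc9 arrays, against 1581 and 1657 on the Tc1 arrays (log2 change 0.36, limma adjusted p = 0.612, with the block 1.04e-07). The block call was lost without the intensity trend (limma adjusted p = 0.0609). Akap10, an anchor of protein kinase A, measured 171 and 214 on the Tc9 arrays, against 199 and 240 on the Tc1 arrays, and its groups overlapped. The list median was 0.002.

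Of 25 measured effector genes 14 were above background on all 4 arrays and 0 passed limma, with 4 higher and 0 lower at p under 0.05 before adjustment (2.94% and 2.34% of all genes) and 6 higher and 3 lower with the block (6.34% and 7.37%). Prex1, a Rac exchange factor driven by beta-gamma subunits, measured 189 and 169 on the Tc9 arrays, against 86.6 and 97.3 on the Tc1 arrays, where it was below background (log2 change 0.85, limma adjusted p = 0.326, with the block 6.99e-07). Pde4b, a phosphodiesterase that degrades cyclic AMP, measured 534 and 638 on the Tc9 arrays, against 274 and 387 on the Tc1 arrays (0.81, limma adjusted p = 0.312, with the block 1.65e-14). For both genes every Tc9 signal was above every Tc1 signal. In either direction the groups did not overlap in 29.1% of all genes and 39.4% of those above background. The list median was 0.073.

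**Figure D4:**
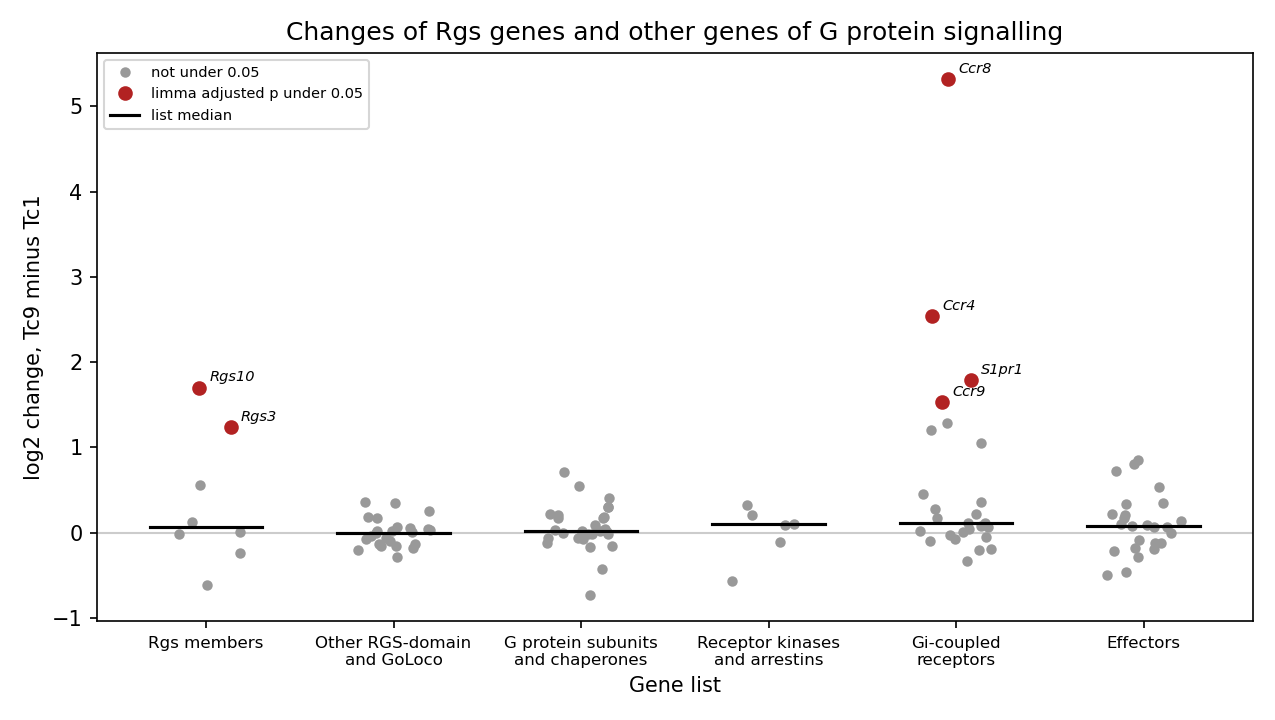
Log2 change (vertical axis, Tc9 minus Tc1) of every measured gene in the Rgs list and 5 lists of other G protein signalling genes; points are genes, black bars list medians, and red points have a limma adjusted p under 0.05. Red points appear for Rgs10 and Rgs3 and for 4 of 26 receptors, and the list medians lie between 0.002 and 0.11.

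The labelled cell types were checked by their markers. All 7 measured T cell and CD8 genes were above background on all 4 arrays, and Cd4 was below it on all 4. Gzmb, encoding granzyme B, was at 466 and 471 on the Tc9 arrays and 6787 and 6956 on the Tc1 arrays, and Ifng, encoding interferon gamma, at 2330 and 2104 on the Tc9 arrays and 4699 and 4077 on the Tc1 arrays. Il9 was below background on all 4 arrays, at 103 and 81.9 in Tc9 and 23.4 and 26.5 in Tc1. The Tc9 label could therefore not be checked by Il9. Rgs10 and Rgs18 are also known from platelets and myeloid cells. The summed signal of 6 platelet and megakaryocyte genes was 394 to 436 in Tc9 and 481 to 503 in Tc1, with Gp9 above background on 1 Tc1 array and the other 5 on none. The summed signal of 8 myeloid genes was 304 to 340 in Tc9 and 271 to 279 in Tc1, with 0 of the 8 above background on any array. Of 7 B cell genes only Cd79b was above background, on 1 Tc9 array (sums 246 to 361 in Tc9, 216 to 354 in Tc1). None of 3 CD4 T cell genes (sums 150 to 197 in Tc9, 159 to 172 in Tc1), 6 dendritic cell genes (181 to 227 and 162 to 225), 5 NK cell genes (179 to 192 and 151 to 160), 8 mast cell and basophil genes (292 to 324 and 327 to 331) or 2 erythroid genes (48.4 to 97.5 and 50.3 to 86.4) was above background on any array. Their part in the Rgs values was not tested.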

How the data were processed

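RNA was measured on 4 Affymetrix arrays after biotin labelling, per the labels' protocols. The authors deposited 1 linear intensity per probe set and array, for 28846 probe sets. The sources used here do not state background correction, summarization, software or genome build. The 6640 control probe sets were left out, 5222 of them negative controls that set the background. Of the other 22206, the platform annotation named 1 gene for 19572 and none for 2634. The probe set with the highest mean stood for a gene, which left 19505 genes.

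Deposited intensities were quantile normalized over the non-control probe sets, 16 was added and log2 taken. Tc9 minus Tc1 was fitted with limma 3.58.1 under R 4.3.3 (intensity trend in eBayes, 2 residual and 5.09 prior degrees of freedom) and Benjamini-Hochberg adjustment over all genes at 0.05, without a block. The number of arrays limits the precision.

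All 8 Rgs genes were named. From each list of other genes, those past the threshold (at most 5) were named, and the 2 with the largest absolute log2 change above background on both arrays of a group. The genes nearest to each of the 2 most changed Rgs genes, 3 each, were also named. The members and lists were chosen with earlier results of these data known.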

Additional observations from a re-analysis of the deposited data

How the results depend on the processing

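Rgs10 and Rgs3 kept their direction under 15 alternatives each, but most of these could not have reversed it. The filters, variance models, blocks and averaging of probe sets left the log2 change unchanged. Groups that do not overlap also keep their direction with another constant added or 1 array left out. Only the values as deposited and median centring could have changed the direction. The 2 Rgs calls became 0 with the values as deposited (log2 changes 1.70 and 1.22) and after centring arrays on their medians (1.68 and 1.20). The fit without the trend in variance called 1, losing Rgs3 (1.24). Without any 1 array the log2 change lay between 1.67 and 1.74 for Rgs10 and between 1.15 and 1.33 for Rgs3. With the replicate block 5 passed, adding Rgs16 (0.56), Rgs2 (-0.62) and Rgs19 (-0.24), and 4 without the trend as well. Rgs14 turned to 0.014 as deposited and ran between -0.20 and 0.18 without 1 array. Leaving out 1 array gave -0.086 to 0.11 for Rgs18 and -0.061 to 0.26 for Grk6. A filter at the negative controls or at the 25th percentile left Rgs18 out.

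Over all genes 110 calls became 16 as deposited (13 higher, 3 lower), 52 with median centring (30 and 22, against 75 and 35), 56 without the trend, 171 with the filter at the negative controls, 2674 with the block, 1426 with the block and no trend, and 186 to 274 without 1 array. The 4 other signalling calls became 1 as deposited, 2 with median centring, 3 without the trend and 3 with 64 added (S1pr1 lost in both), 29 with the block, 19 with the block and no trend, and 4 to 7 without 1 array (7 without the Tc9 array numbered 1). Without any 1 array the log2 change lay between 0.79 and 1.32 for Cxcr3, 0.58 and 1.05 for Pde4b, and 0.52 and 0.90 for Gng2. Cxcr4 passed with the filter at the negative controls (limma adjusted p = 0.0167). It entered that fit only through the Tc9 arrays, where it is high, so that call adds no support. The causes were not tested. Leaving out an array left 1 residual degree of freedom, and the lone array was assumed to vary like the other group. Only log2 changes are therefore given for those fits. Deviations from the group means correlated across genes between arrays of the same number (r = 0.729), but with 2 numbers the pairing could not be settled; no label gives it. The 2 arrays per group limit what could pass, and signals under the negative controls could not be compared.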
